A study of Mus musculus with 267 samples.

Results

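Acetylation of histone H3 at lysine 27 (H3K27ac) was compared between C57BL/6J (C57) bone marrow-derived macrophages (BMDMs) given interleukin-4 (IL-4) for 6 h and untreated (basal) cells. All H3K27ac columns of the C57 time-course table with these labels were taken, 2 libraries at 6 h and 2 basal, over every region of that table. The table holds 77955 regions of the 423610 listed in all tables of region tag counts of the series. Each region spans 1000 bp around the centre of a site of open chromatin, as found by the assay for transposase-accessible chromatin with sequencing (ATAC-seq).

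The macrophages came from female mice aged 8 to 12 weeks, were grown from marrow with macrophage colony-stimulating factor, and received mouse recombinant IL-4 at 20 ng/mL. The same table holds 2 H3K27ac libraries each at 1 and 24 h and 10 libraries of RNA polymerase II (Pol II), 4 basal, 1 at 1 h, 2 at 6 h and 3 at 24 h. Per the study's methods ChIP was done on biological replicates, and since the labels number the libraries without tying them to mice, the p-values below measure the spread between these libraries. Values are tags, meaning aligned reads counted in a region, scaled to 10000000 tags of the library total, and are called normalized tags here.

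IL-4 acts through a receptor whose Janus kinases phosphorylate the transcription factor STAT6, which then enters the nucleus and binds DNA. In macrophages this drives the alternative activation program, with genes of arginine metabolism, chitinase-like proteins and lectin receptors, and induces further factors such as EGR2. H3K27ac marks active enhancers and promoters, so its level at a distal site is a common measure of enhancer activity, and Pol II at such sites reports transcription there.

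The sequences below are the central 300 bases of the regions with the 4 largest rises and the 4 largest falls at 6 h, 1 region per nearest gene. They show what the most changed sites look like at base level, and they are named by the nearest start of a protein-coding gene. The first 2 falls were printed by rule, and Cmah and Icosl were added after their values were seen, because the first 2 held no searched motif. All are from the plus strand of RefSeq GRCm38.p6 (mm10), 5′ to 3′. Capitals mark matches of the motifs TTCNNNNGAA (the spacing preferred by STAT6), TTCNNNGAA (the spacing of other STAT proteins), TGANTCA (AP-1) and GGGNNNNTCC (NF-kB), searched on both strands.

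Ang5, rise, chr14:43967240-43967539: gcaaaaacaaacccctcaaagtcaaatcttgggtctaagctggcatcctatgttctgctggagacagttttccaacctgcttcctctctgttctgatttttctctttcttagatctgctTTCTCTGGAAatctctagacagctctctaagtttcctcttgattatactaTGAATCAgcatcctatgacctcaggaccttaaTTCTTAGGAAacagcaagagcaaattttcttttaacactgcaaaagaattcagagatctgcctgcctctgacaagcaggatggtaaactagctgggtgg
Slc7a14, rise, chr3:31266114-31266413: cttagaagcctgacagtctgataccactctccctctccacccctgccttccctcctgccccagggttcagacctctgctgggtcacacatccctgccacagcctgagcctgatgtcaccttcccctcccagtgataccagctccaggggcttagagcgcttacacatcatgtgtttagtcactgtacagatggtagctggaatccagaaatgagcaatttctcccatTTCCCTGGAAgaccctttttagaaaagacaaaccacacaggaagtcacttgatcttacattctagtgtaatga
Cry1, rise, chr10:85266183-85266482: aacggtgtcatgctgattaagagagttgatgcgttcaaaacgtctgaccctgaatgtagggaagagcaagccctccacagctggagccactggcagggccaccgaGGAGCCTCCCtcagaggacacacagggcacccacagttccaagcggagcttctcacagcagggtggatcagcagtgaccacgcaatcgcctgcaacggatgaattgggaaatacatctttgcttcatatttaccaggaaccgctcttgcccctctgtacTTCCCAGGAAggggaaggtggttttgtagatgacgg
Rai14, rise, chr15:10696825-10697124: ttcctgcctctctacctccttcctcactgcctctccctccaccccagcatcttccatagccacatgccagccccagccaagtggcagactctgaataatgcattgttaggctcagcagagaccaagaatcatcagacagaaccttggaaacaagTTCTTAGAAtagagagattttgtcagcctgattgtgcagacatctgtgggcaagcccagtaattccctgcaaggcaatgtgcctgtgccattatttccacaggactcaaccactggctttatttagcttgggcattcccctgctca
Sfi1, fall, chr11:3146053-3146352: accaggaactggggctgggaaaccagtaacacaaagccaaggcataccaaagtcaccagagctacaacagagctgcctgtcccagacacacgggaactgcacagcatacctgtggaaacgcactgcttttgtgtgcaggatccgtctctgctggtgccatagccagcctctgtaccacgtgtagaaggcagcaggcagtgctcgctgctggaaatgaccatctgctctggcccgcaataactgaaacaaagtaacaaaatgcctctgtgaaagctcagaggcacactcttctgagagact
Adam6b, fall, chr12:113425211-113425510: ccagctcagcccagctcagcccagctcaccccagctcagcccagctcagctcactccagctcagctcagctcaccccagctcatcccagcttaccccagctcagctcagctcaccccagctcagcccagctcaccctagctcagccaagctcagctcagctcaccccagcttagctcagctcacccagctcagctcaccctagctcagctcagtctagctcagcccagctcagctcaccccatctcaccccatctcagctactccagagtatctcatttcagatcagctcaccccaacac
Cmah, fall, chr13:24402367-24402666: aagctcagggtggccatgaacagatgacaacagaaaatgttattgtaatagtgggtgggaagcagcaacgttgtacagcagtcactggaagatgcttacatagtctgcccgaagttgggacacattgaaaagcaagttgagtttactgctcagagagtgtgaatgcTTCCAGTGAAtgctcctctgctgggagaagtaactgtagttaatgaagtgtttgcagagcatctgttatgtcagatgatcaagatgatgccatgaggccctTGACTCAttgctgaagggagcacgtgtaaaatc
Icosl, fall, chr10:78086697-78086996: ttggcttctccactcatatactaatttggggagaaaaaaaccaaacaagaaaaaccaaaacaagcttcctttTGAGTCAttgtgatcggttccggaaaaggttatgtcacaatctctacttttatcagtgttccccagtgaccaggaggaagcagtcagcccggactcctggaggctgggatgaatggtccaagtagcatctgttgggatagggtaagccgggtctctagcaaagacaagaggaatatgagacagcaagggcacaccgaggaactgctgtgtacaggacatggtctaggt

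The Ang5 sequence held 2 STAT6-spaced motifs and 1 AP-1 motif, the Slc7a14 sequence 1 STAT6-spaced motif, and the Cry1 sequence 1 STAT6-spaced motif and 1 NF-kB motif. The Rai14 sequence held 1 motif of the other STAT spacing and none of the STAT6 spacing. Among the falls, the Cmah sequence held 1 STAT6-spaced and 1 AP-1 motif, and the Icosl sequence 1 AP-1 motif. The Adam6b sequence is a run of short repeats, and it lies within the immunoglobulin heavy chain locus, between Ighm and the joining segments. A match is a description of letters and not evidence of binding.

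After 6 h of IL-4, 2078 regions rose and 1919 fell in H3K27ac, by limma on log2(normalized tags + 1), called where the p adjusted by Benjamini-Hochberg was under 0.05. These are 2.67% and 2.46% of the 77955 regions tested, 5.13% in either direction. In these bulk samples fewer cells carrying the mark and less mark per cell cannot be told apart. In all 3997 called regions the 6 h libraries lay outside the range of the basal libraries, as they did in 56.4% of all regions. The regions that rose were mostly near silent in basal cells, with a median over regions of 3.43 normalized tags in basal against 37.2 at 6 h. The regions that fell were mostly strongly marked before, with medians of 100.1 in basal and 15.4 at 6 h, while over all regions the medians were 20.2 and 18.8.

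The median log2 difference was 2.87 in the regions that rose (quartiles 2.53 and 3.44) and -2.48 in those that fell, against -0.14 over all regions. Basal means were under 16 normalized tags in 1839 (88.5%) of the regions that rose, and 6 h means were under 16 in 983 (51.2%) of those that fell. Both basal libraries stood at 0 in 80 of the rising regions, where the fitted value is no bound. With these set to the bound from 3 reads over the basal group, the median was again 2.87. The share of regions that rose was highest among regions averaging 16 to 32 normalized tags (5.83%), and the share that fell among those averaging 64 to 128 (5.19%). Among the 6320 regions averaging 256 or more, 0.0791% rose and 1.52% fell. The median log2 difference also went down with level. It was 0.30 in regions averaging under 4 normalized tags, -0.42 at 128 to 256 and -0.52 at 256 or more.

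**Figure D1:**
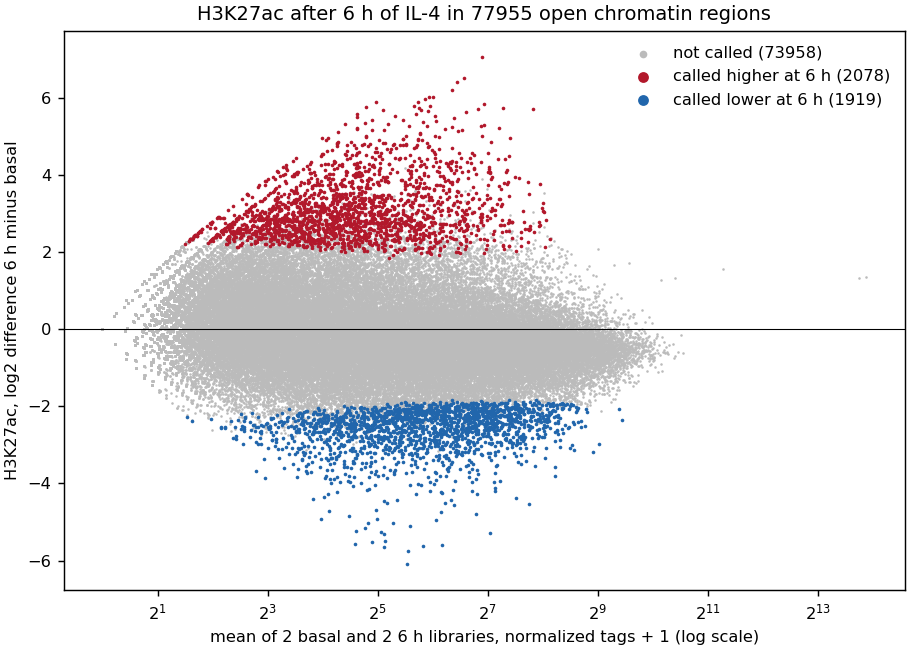
H3K27ac change at 6 h against level: the x axis is the mean of the 4 libraries in normalized tags plus 1 on a log scale, the y axis the limma log2 difference of 6 h minus basal, and each point 1 of 77955 regions. The 2078 regions called higher (red) reach down to low levels, and the 1919 called lower (blue) lie further right.

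Library totals ran from 12985429 to 16432575 tags in these 4 libraries, so that 16 normalized tags stood for 20.8 to 26.3 reads. The regions held 69.7% and 63.8% of tags in the basal libraries and 51.0% and 50.2% at 6 h. When libraries were scaled by median ratios over the regions instead of library totals, 2526 regions rose and 1211 fell, and the median log2 difference of all regions moved from -0.14 to 0.04. H3K27ac at 1 h, replicate 2, stood apart with 20.5% of tags in regions against 44.0% in replicate 1. Without it 3201 regions rose and 3794 fell at 6 h. The counts rested on both 6 h libraries: 227 regions were called without replicate 1 and 269 without replicate 2. Without basal replicate 2 the counts were 855 higher and 195 lower, so that the falls in particular rested on this library, and 7219 were called without 1 h replicate 1. Of the macrophage markers, 8 of 10 had a promoter region (all but Mpeg1 and Cd163), with summed levels of 4147 to 4317 normalized tags in basal and 1837 to 2233 at 6 h. Among them the promoters of Fcgr1, an IgG receptor (680 and 642 to 80.9 and 188), and Cd14 (485 and 551 to 146 and 124) fell. B cell markers had no promoter region, and promoters of T and NK cell, granulocyte and mast cell, erythroid and stromal markers summed to at most 83.2 in any of the 4 libraries. Dendritic cell markers with a promoter region, Batf3 and Zbtb46, summed to 15.6 and 37.8 in basal and to 89.3 and 102.2 at 6 h, with neither called. The part of these differences in the results was not tested.

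The largest rise lay 10320 bp from the start of Ang5, a ribonuclease gene of the angiogenin family (chr14:43966889-43967889, intergenic). Normalized tags there were 2.04 and 0 in basal, 83.5 and 28.6 at 1 h, 206 and 262 at 6 h and 202 and 221 at 24 h. Both 6 h libraries lay above every basal and 1 h library and overlapped those of 24 h. The fitted log2 difference of 6 h minus basal was 7.07 (SE 0.639, limma adjusted p 9.44e-05). The basal group held 3 reads, so the ratio of summed reads, 228-fold, has an exact 95% interval of 77.6 to 1107. Pol II at this site was 0, 0, 0.54 and 0 in the basal libraries and 62.4 and 48.3 at 6 h.

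The next rise was in an intron of Slc7a14, a member of the cationic amino acid transporter family (chr3:31265763-31266763). It measured 1.36 and 0.71 normalized tags in basal, 143 and 232 at 6 h, and 86.6 and 52.5 at 24 h, a log2 difference of 6.51 (SE 0.747, limma adjusted p 2.86e-04). Upstream of Cry1, which encodes a repressor of the circadian clock, a region 81268 bp from the start (chr10:85265832-85266832) went from 0.68 and 1.43 to 198 and 145. Both 6 h libraries were above all other libraries there. The log2 difference was 6.40 (SE 0.726, limma adjusted p 2.86e-04). In an intron of Rai14, an actin-associated ankyrin repeat protein (chr15:10696474-10697474), values were 0.68 and 1.43 in basal and 223 and 97.4 at 6 h. Its 24 h libraries were far apart, at 77.2 and 1.97. Its log2 difference was 6.20 (SE 1.177, limma adjusted p 0.00618). From 3 basal reads each, the exact 95% intervals of the fold were 63.0 to 900.4 for Slc7a14, 54.9 to 785 for Cry1 and 49.8 to 712 for Rai14, and cover counting error only.

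The promoter of Msx3, a homeobox gene, was the only promoter among the 10 largest rises, with 0 and 2.14 normalized tags in basal and 155 and 82.8 at 6 h (log2 difference 6.01). The other rises lay upstream of Kcnd3 (a voltage-gated potassium channel; 5.98), in an intron of Pigk (a subunit of the GPI transamidase; 5.88), in an intron of Ttc27 (5.79) and 231551 bp from Hrh4 (the histamine H4 receptor; 5.85). A region 46970 bp from the start of Schip1 had no tag in either basal library and 75.5 and 45.6 at 6 h, which is at least 56.4-fold higher when the basal group as a whole is set to 3 reads. Over the 10 regions the highest basal library stood at 6.11 and the lowest 6 h library at 45.6 normalized tags. A STAT6 peak at 6 h overlapped 8 of the 10 regions (30.5% of all regions). A basal STAT6 or PU.1 peak overlapped 0 (36.4% and 62.3% of all). An EGR2 peak at 6 h overlapped 1 of the 10, at Cry1 (17.1% of all regions). From 3, 3 and 2 basal reads, the folds at Msx3, Kcnd3 and Pigk had exact 95% intervals of 37.3 to 535, 37.9 to 545 and 39.6 to 1196. Pol II passed its own test in 7 of the 10, and 0 of the 10 lost its call under median-ratio scaling.

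Among the falls, the largest was in an exon of Sfi1, which encodes a centrin-binding protein of the centrosome (chr11:3145702-3146702). Normalized tags were 82.1 and 99.1 in basal, 0 and 4.13 at 1 h, 0.77 and 0 at 6 h, and 107 and 139 at 24 h. The 1 h and 6 h libraries were near 0 and the basal and 24 h libraries high. The log2 difference was -6.10 (SE 0.697, limma adjusted p 2.86e-04), and from 1 read at 6 h the exact 95% interval of the fold fall was 47.3 to 10543. Bases soft-masked as repeats in the reference made up 32.6% of this region, and Pol II there was 0.62 in basal replicate 1 and 35.3 to 66.8 in the other basal libraries. At 24 h Pol II was 43.35, 1.82 and 76.96, so that libraries of the same time point were far apart in Pol II. The cause was not tested.

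The fall near Adam6b, 64151 bp from its start (chr12:113424860-113425860), ran from 45.5 and 176 normalized tags in basal to 0 and 2.43 at 6 h, and 47.3% of its bases were masked as repeats. In an intron of Cmah, the hydroxylase that makes the sialic acid Neu5Gc (chr13:24402016-24403016), values went from 55.0 and 65.6 to 0 and 3.04 (log2 difference -4.92, SE 0.867, limma adjusted p 0.0038). Near Icosl, the ligand of the T cell costimulator ICOS (chr10:78086346-78087346), they went from 65.1 and 208 to 2.31 and 4.87 (log2 difference -4.74). The basal libraries differed from each other near Adam6b and Icosl and were close together at Cmah. Both basal libraries stood far above both 6 h libraries in each of these regions, which were chosen for large falls without overlap of libraries.

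Upstream of Nr4a1, an orphan nuclear receptor, a region 6215 bp from the start (chr15:101247554-101248554) fell from 40.7 and 78.4 normalized tags to 0.77 and 1.83 (log2 difference -4.68, SE 0.633, limma adjusted p 6.05e-04). The other large falls had log2 differences of -4.54 (nearest Dlx2, 115418 bp away), -4.44 (nearest Map7, in an intron of Map3k5), -4.43 (nearest Bloc1s3) and -4.27 (nearest Pot1b). Over these 9 falls the lowest basal library stood at 33.9 and the highest 6 h library at 17 normalized tags. Basal peaks of STAT6 and of PU.1, the lineage-determining factor of macrophages, each overlapped 7 of the 9. They overlapped 36.4% and 62.3% of all regions. Pol II passed its test in 1 of them, nearest Dlx2. Without 6 h replicate 1 the calls of 5 of these 19 rises and falls were lost, and without replicate 2 those of 3.

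**Figure D2:**
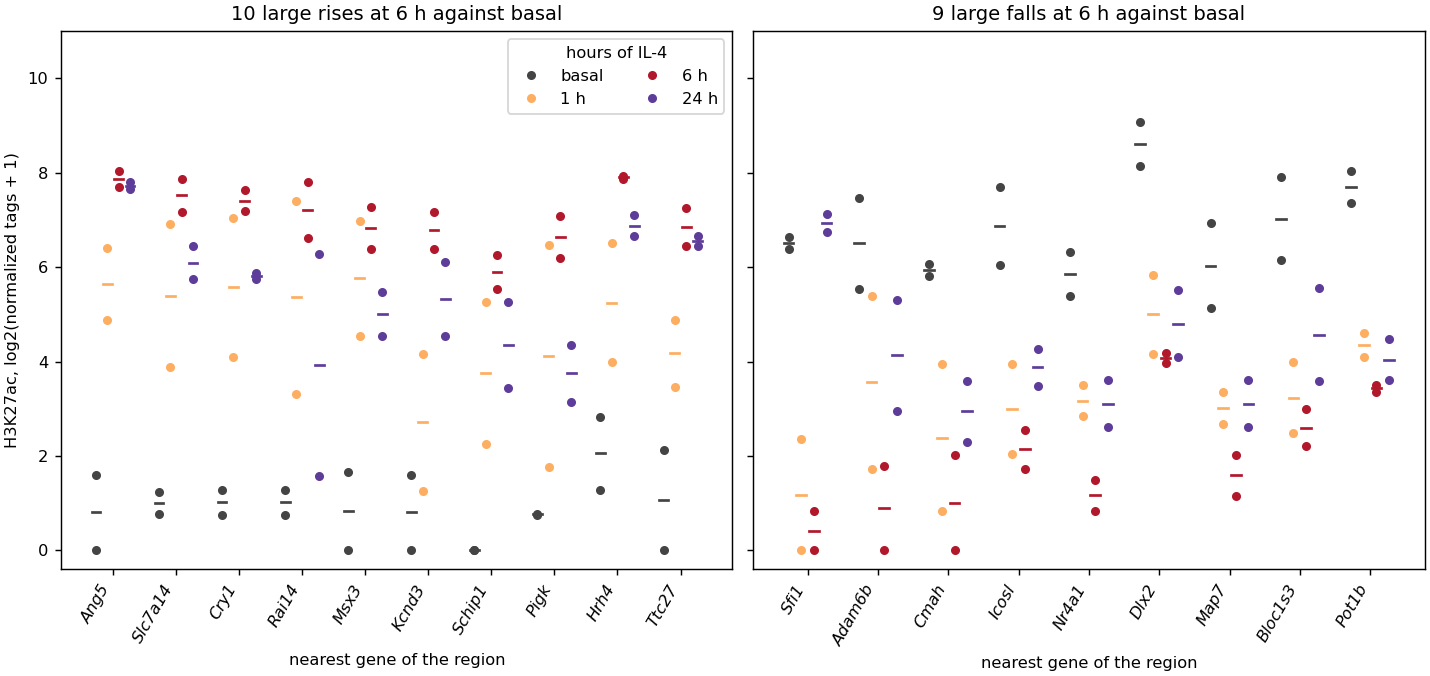
H3K27ac in every library of the 10 largest rises (left) and of 9 of the largest falls (right), as log2(normalized tags + 1), with 2 points and their mean (line) per time and the nearest gene on the x axis. The regions were chosen for no overlap of basal and 6 h libraries. By that choice both 6 h points (red) lie above both basal points (grey) in each rise and below them in each fall. At Sfi1 the 24 h points (purple) lie near the basal points.

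Counting 16 or more normalized tags and a 2.5-fold difference of means, with 1 added to each mean and no test, 4356 regions were higher and 6732 lower at 6 h. These are 5.59% and 8.64% of regions. Requiring the same of Pol II, with at least 8 normalized tags, left 1276 regions higher (1.64%) and 1459 lower (1.87%), of which 1147 and 1272 were intronic or intergenic. By limma alone Pol II rose in 334 regions (0.428%) and fell in 107 (0.137%).

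Pol II was measured independently of the H3K27ac calls, and its median log2 difference was 1.45 in regions where H3K27ac rose, -1.24 where it fell and -0.02 over all regions. Of the regions where H3K27ac rose, 205 (9.87%) also rose in Pol II and 0 fell, and of those where it fell 71 (3.70%) also fell and 1 rose. The exception lay near Atp6v0d2, a proton pump subunit (chr4:19871152-19872152), where H3K27ac went from 95.0 and 252 normalized tags to 27 and 20.7 and Pol II rose by 2.37 on the log2 scale (limma adjusted p 0.0154). Median Pol II of the regions where H3K27ac rose was 7.49, 2.81, 2.14 and 3.04 normalized tags in the basal libraries and 13.1 and 12.7 at 6 h. Where H3K27ac fell the basal medians were 9.98, 18.5, 23.1 and 20.3 and the 6 h medians 6.57 and 5.85. Basal Pol II replicate 1 lay between the other basal libraries and the 6 h libraries in both sets. Without it 1564 regions rose and 799 fell in Pol II.

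Most called regions lay away from promoters. Of 12523 promoter regions 0.703% rose and 0.918% fell, against 2.97% and 2.42% of 33907 intronic and 3.49% and 3.45% of 25569 intergenic regions. Introns and intergenic regions thus held 91.4% of the regions that rose and 88.7% of those that fell, and 76.3% of all regions. These classes come from the authors' annotation and carry no test. In basal cells H3K4me2, a mark of promoters and of primed enhancers, had a median of 11.9 normalized tags at the regions that rose with a measured value, 64.6 at those that fell and 46.2 over all.

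The ATAC-seq peak lists of basal and 6 h cells were set beside the H3K27ac calls. Of 7105 regions with an ATAC-seq peak at 6 h and none in basal, 5.36% rose and 1.60% fell, and of 17791 with a basal peak and none at 6 h, 1.85% rose and 3.52% fell. Of the 38434 regions open at both times 2.26% rose and 2.64% fell, and of 14625 with a peak at neither time 3.42% rose and 1.12% fell. The regions with no peak at either time held 24.1% of all that rose and made up 18.8% of all regions.

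STAT6 peaks were set beside the calls in the same way. Peak lists of each factor, made by the authors per condition, were overlapped with the regions by at least 1 bp. The lists differed in length, with 30589 STAT6 peaks in basal and 23884 at 6 h, and 8437 and 13072 EGR2 peaks. Absence from a list can reflect a shorter list, and a gain or loss of binding was not tested. Among 6226 regions with a STAT6 peak at 6 h and none in basal, 851 (13.7%) rose and 11 (0.177%) fell, with a median log2 difference of 0.75. Among 10883 with a basal STAT6 peak and none at 6 h, 14 (0.129%) rose and 723 (6.64%) fell (median -0.61). In 17516 regions with STAT6 peaks at both times 143 (0.816%) rose and 825 (4.71%) fell, and in 43330 with neither 2.47% rose and 0.831% fell. A STAT6 peak at 6 h was thus present in 47.8% of the regions that rose and 43.6% of those that fell (30.5% of all), while a basal STAT6 peak was present in 7.56% and 80.7% (36.4% of all).

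Other macrophage factors were also mapped before IL-4. Basal peaks of PU.1 overlapped 90.4% of the regions that fell (62.3% of all regions), of CEBPb 36.1% (20.8%) and of PPARg, a lipid-sensing nuclear receptor, 18.7% (8.28%). The shares among regions that rose were 25.8%, 9.05% and 2.12%. Regions that fell had far more basal H3K27ac than those that rose (medians 100.1 and 3.43, against 20.2 over all). These shares, and those of basal STAT6 peaks, were not compared at matched basal levels, so they also contrast marked with unmarked sites. For EGR2, the zinc finger factor that IL-4 induces, the groups of regions lay closer together at 6 h. Of 5361 regions with an EGR2 peak at 6 h and none in basal 3.92% rose and 1.90% fell, with a median log2 difference of -0.25, and of 63546 regions with no EGR2 peak at either time 2.67% rose and 2.68% fell. EGR2 peaks at 6 h overlapped 16.8% of the regions that rose and 10.8% of those that fell (17.1% of all). Those at 24 h overlapped 47.2% of the regions that rose and 25.1% of those that fell (35.3% of all).

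**Figure D3:**
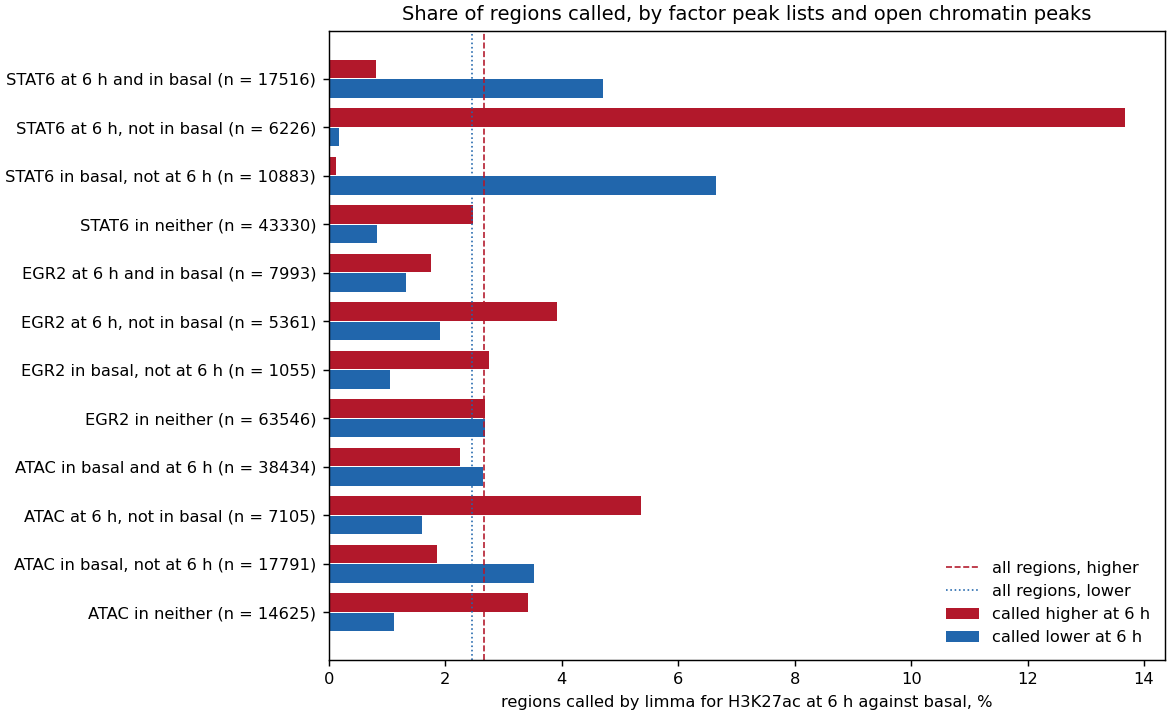
Share of regions called for H3K27ac at 6 h against basal (x axis, %) by the presence of STAT6, EGR2 and ATAC-seq peaks in basal and at 6 h, red for higher and blue for lower, with the shares over all regions as vertical lines. The longest red bar, 13.7%, belongs to STAT6 peaks present at 6 h and absent in basal, and the longest blue bar, 6.64%, to STAT6 peaks present in basal and absent at 6 h.

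Motifs were counted in the same regions. Within the central 300 bases, the motif TTCNNNNGAA occurred in 29.6% of regions that rose (exact 95% interval 27.7 to 31.7), 5.26% of those that fell (4.31 to 6.36) and 8.77% of all regions. It was present in 48.8% of the 851 rising regions with a STAT6 peak at 6 h and none in basal, as in the Ang5, Slc7a14 and Cry1 sequences above. Of the 1084 without a STAT6 peak at 6 h, 12.7% held it. The AP-1 motif TGANTCA was in 31.9%, 20.3% and 19.7% of the rising, falling and all regions, and TTCNNNGAA in 14.6%, 6.93% and 8.67%. The PU.1 motif GAGGAAGT was in 5.49% of rising, 17.8% of falling and 9.53% of all regions. The EGR motif GTGGGCG was in 3.66%, 1.67% and 5.03%, the NF-kB motif in 15.8%, 16% and 18.3%, and the C/EBP motif TTGCGCAA in 0.144%, 0.156% and 0.19%. Among intronic and intergenic regions alone, the EGR motif was in 3.32% of rising, 1.12% of falling and 2.89% of all. There the AP-1 motif was in 33.2%, 21.3% and 23.3%, and TTCNNNNGAA in 30.4%, 5.40% and 9.77%. The order of rising and all regions for EGR, and of falling and all for AP-1, thus depended on the regions compared. Motif letters can overlap between factors, and no test was run on these shares.

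Genes of the pathway were described through lists, taking for each gene the region with the highest mean over the 4 libraries among those nearest to it. Over all 15632 genes with a region, this region rose in 242 (1.55%) and fell in 334 (2.14%), with a median log2 difference of -0.29. Of 29 effector genes of the IL-4 response with a region, it rose in 7 and fell in 2 (median 0.50), and 43 (16.4%) of all their 262 regions rose and 8 (3.05%) fell. With either 6 h library left out, 4 strongest regions were called in the effector list, and 0 in the lists of signal-dependent factors, receptors, NF-kB and inflammatory genes and lipid genes, so the single calls of those lists rest on both 6 h libraries. Without basal replicate 2 the calls at Alox15, F13a1, Fosb, Nr4a2, Il6, Cxcl1, Il1a, Apoe, Cd14 and an intron of Cx3cr1 (its strongest region, log2 difference -2.44) were lost as well, 10 of 32 called among the regions named by rule.

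The largest rises of the effector list were at 2 promoters. Tmem26, a transmembrane protein, had 6.78 and 2.85 normalized tags in basal and 225 and 382 at 6 h (chr10:68723320-68724320), a log2 difference of 5.75 (SE 0.789, limma adjusted p 6.33e-04). Slc7a2, which brings arginine into macrophages, had 10.9 and 4.99 in basal, 477 and 411 at 6 h and 396 and 159 at 24 h (chr8:40861882-40862882), a log2 difference of 5.72 (SE 0.859, limma adjusted p 0.00128). In both promoters the 6 h libraries stood far above the basal libraries. The chitinase-like genes rose as well. Chil4 went from 8.14 and 1.43 to 94.7 and 108 (log2 difference 4.44) and Chil3 from 0 and 4.28 to 27.7 and 32.3 (3.75). Il4i1, an amino acid oxidase, rose by 4.09, the lectin gene Mgl2 by 2.66 and Cdh1, which encodes E-cadherin, by 2.31 on the log2 scale.

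For Arg1, the arginase that defines alternative activation, the strongest region had 104 and 133 normalized tags in basal, 592 and 124 at 1 h, 689 and 368 at 6 h and 271 and 278 at 24 h. Both 6 h libraries were above all basal and 24 h libraries, but its log2 difference of 2.08 did not pass (SE 0.672, limma adjusted p 0.0781). Of its 13 regions 7 rose, led by one 25293 bp from the start (log2 difference 4.46), where 3 basal reads give an exact 95% interval of the fold of 16.9 to 246. The strongest region of Mrc1, the mannose receptor, differed by 0.34 (limma adjusted p 0.801). Tfrc, the transferrin receptor, had 6 of 8 regions higher and Tmem26 6 of 14, while 4 of 11 regions near Atp6v0d2 fell. The 2 effector genes whose strongest region fell were Alox15, a lipoxygenase (72.6 and 230 to 32.3 and 20.7, log2 difference -2.28), and F13a1, a coagulation factor subunit (95.7 and 220 to 33.9 and 23.7, -2.31). The regions are intergenic, 22461 bp upstream of the start of Alox15 and 70158 bp upstream of that of F13a1. Both calls were lost under median-ratio scaling (limma adjusted p 0.0661 and 0.0821) and without basal replicate 2 (0.484 and 0.375).

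The machinery of IL-4 signalling and its feedback moved at other regions than the strongest. None of the 20 strongest regions passed the test (median -0.30), although 28 (9.40%) of 298 regions of these genes rose and 1, near Stat6, fell. Socs1, a feedback inhibitor of Janus kinases, had 15 of 28 regions higher, together with Bhlhe40 the most of any gene. The strongest of its risen regions by change (chr16:10786570-10787570, at the end of Tnp2) went from 6.11 and 1.43 normalized tags to 182 and 262, a log2 difference of 5.72 (SE 0.602, limma adjusted p 2.21e-04). Its promoter measured 469 and 252 in basal and 765 and 604 at 6 h and did not pass (log2 difference 0.98, limma adjusted p 0.456). Cish, another feedback inhibitor, had 6 of 7 regions higher, and Jak2 3 of 12. At Stat6 the promoter measured 995 and 691 in basal and 314 and 567 at 6 h (log2 difference -0.97, limma adjusted p 0.388), and at Il4ra, the receptor chain, 370 and 238 and then 293 and 274. These values show no called change of the receptor and STAT6 promoters themselves.

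Transcription factors induced by signals split by gene. In 26 genes the strongest region rose at Irf4, a factor of the IL-4 response, from 3.39 and 2.14 to 69.3 and 91.9 (log2 difference 4.44), and fell at Fosb, an AP-1 subunit, from 250 and 312 to 35.4 and 42.6 (-2.82), and at the strongest region assigned to Nr4a2 (-2.52). The Irf4 region lies 82299 bp from the start in an intron of Exoc2, and the Nr4a2 region is intergenic, 807901 bp from the start and 71.2% masked as repeats. The list median was -0.33, and 35 (6.59%) of its 531 regions rose and 11 (2.07%) fell, against 2.67% and 2.46% of all regions. Bhlhe40, a basic helix-loop-helix repressor, had 15 of 43 regions higher, Klf6 4 of 49, Myc 4 of 58 and Egr2 2 of 14. The Egr2 promoter measured 147 and 106 in basal and 370 and 229 at 6 h, without passing the test (log2 difference 1.22, limma adjusted p 0.325), while its Pol II rose by 1.99 on the log2 scale (limma adjusted p 0.0327).

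Lineage transcription factors kept uncalled strongest regions in all 16 genes (median -0.33), and 24 (6.12%) of their 392 regions fell and 3, near Cebpb, Tfec and Mef2c, rose. Maf, a factor of resident macrophages, accounted for 13 of these falls and Runx1 for 7. The largest at Maf (chr8:115596827-115597827) went from 167 and 394 normalized tags to 16.9 and 14.6 (log2 difference -3.94, SE 0.597, limma adjusted p 0.00136). At Spi1, which encodes PU.1, the strongest region measured 1394 and 1110 in basal and 737 and 669 at 6 h and was not called (log2 difference -0.82).

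**Figure D4:**
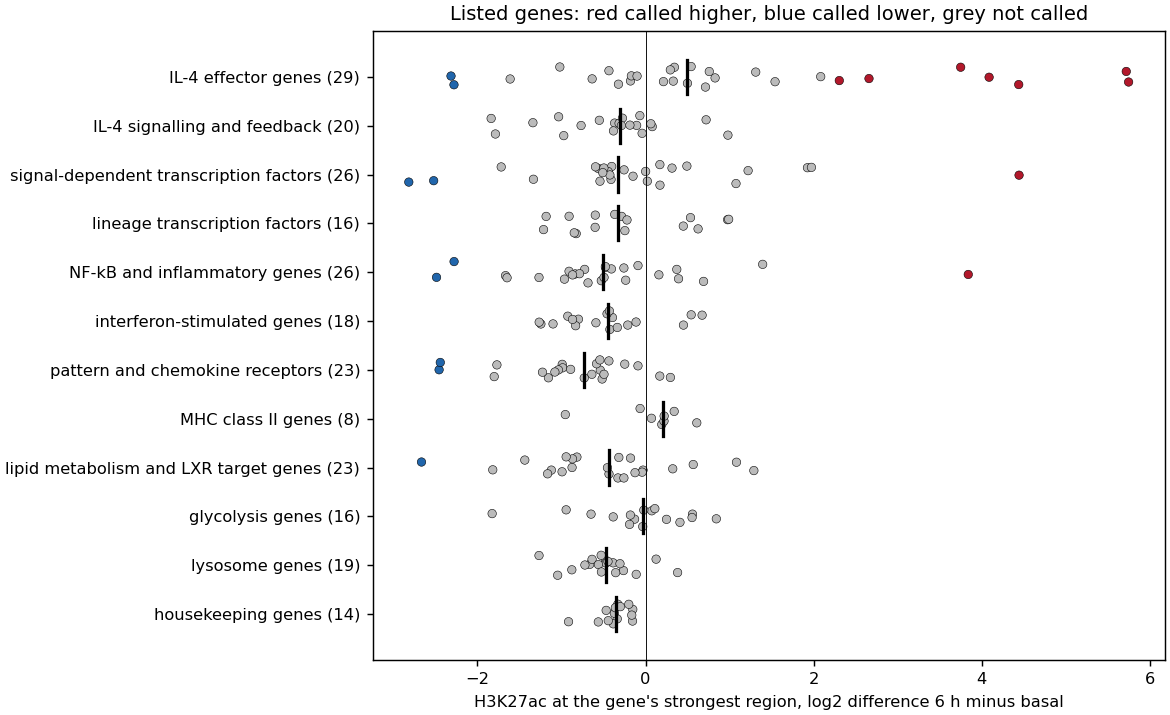
Log2 difference of H3K27ac, 6 h minus basal (x axis), at the strongest region of each listed gene, 1 point per gene and 1 line per list with the number of genes in brackets, black bars for list medians. Of the IL-4 effector genes 7 are called higher, and the median of the pattern and chemokine receptors lies at -0.73.

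Receptors for microbial patterns and chemokines had a median of -0.73 over 23 genes, with 16 (9.25%) of 173 regions lower and 1, near Tlr4, higher. Strongest regions had a basal median of 381 normalized tags in this list, 288 for NF-kB and inflammatory genes and 543 for lineage factors. Over all genes it was 83.1. Regions averaging 256 or more had a median log2 difference of -0.52, and list medians were not compared at matched levels. Cx3cr1, the fractalkine receptor, fell at its promoter from 60.4 and 185 normalized tags to 4.62 and 6.69 (log2 difference -4.02, SE 0.822, limma adjusted p 0.00951) and at 4 of its 6 regions. Cd14, the coreceptor for lipopolysaccharide, fell at its strongest region from 513 and 759 to 156 and 81.6 (log2 difference -2.46) and at 5 of 6 regions. Among 26 NF-kB and inflammatory genes the strongest region fell at Il6 (-2.49) and Cxcl1 (-2.28). These 2 regions are intergenic, 22756 bp from the start of Il6 and 9434 bp from that of Cxcl1. At Il1a the strongest region rose, from 23.8 and 2.14 to 183 and 85.8 (3.84), and the list median was -0.51. Of the 229 regions of this list 5 (2.18%) rose and 8 (3.49%) fell, near the 2.67% and 2.46% of all regions. Nfkbiz, which encodes an atypical inhibitor of NF-kB, had 5 of 16 regions lower, so 5 of the 8 falls were near this gene. The lipid and liver X receptor list had 1 call in 23 genes, the promoter of the lipid carrier Apoe, which fell from 221 and 410 to 39.3 and 55.4 (log2 difference -2.66, limma adjusted p 0.0122).

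No strongest region was called among 18 interferon-stimulated genes (median -0.44), 8 MHC class II genes (0.21), 16 glycolysis genes (-0.03), 19 lysosome genes (-0.47) or 14 housekeeping genes (-0.35). Of 69 regions of the interferon list, 1 near Mx1 rose and 1 near Oasl1 fell (1.45% each). Of 54 regions of the MHC class II list 0 were called. In the glycolysis list 3 regions near Hk2 and 1 near Pfkp rose (2.21% of 181). In the lysosome list 1 near Ctsl and 1 near Atp6v1h rose (1.32% of 152) and 1 near Laptm5 fell (0.658%). In the housekeeping list 1 near Ywhaz rose (1.33% of 75). All these shares lay below those over all regions, where 2.67% rose and 2.46% fell. The strongest regions of Gbp2 and Gbp5, which encode interferon-induced GTPases, had log2 differences of 0.67 and 0.54. Their basal libraries stood at 286 and 46.4 for Gbp2 and 99.1 and 10.7 for Gbp5. At Hk2, a hexokinase, the strongest region stood at -1.82 (limma adjusted p 0.0696). Retnla, Pdk4, Ifi44 and Cxcl9 were nearest to no region. Of the listed cell type markers, the strongest regions of Ms4a1 (log2 difference -3.34), Flt3 (-2.15) and Cd14 fell and that of Cd2 rose (2.90).

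Some genes had many called regions. The regions that rose were nearest to 1157 genes and those that fell to 1075, with 76 genes in both. After Socs1 and Bhlhe40, Slc7a14 had 13 of 15 regions higher, Creb5, a factor of the CREB family, 12 of 36, and Fndc3a, a fibronectin domain protein, 11 of 22. Zfp36l2, an RNA-binding protein of the tristetraprolin family, had 25 of 60 regions lower and 1 higher. Its largest fall (chr17:84119326-84120326) was from 367 and 751 normalized tags to 37.0 and 35.9 (log2 difference -3.81, limma adjusted p 0.00427). Near Nfatc2, a calcium-dependent factor, 10 of 26 regions fell. Sfi1 had the most, 57 of 95 lower and 2 higher, but 87 of those 95 regions overlapped another region, against 27% of all regions, and without Sfi1 1862 regions were called lower.

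**Figure D5:**
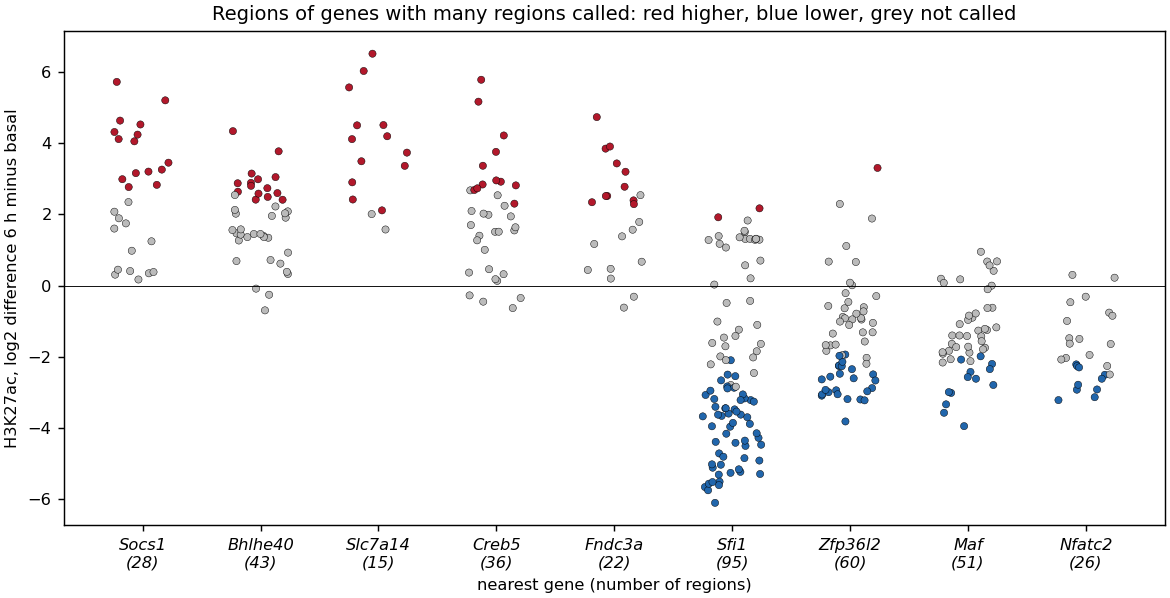
Log2 difference of H3K27ac, 6 h minus basal (y axis), of every region nearest to the 5 genes with most regions called higher and of 4 genes with many called lower, 1 point per region and the number of regions in brackets. Of the points, 13 of 15 are called higher at Slc7a14 and 25 of 60 lower at Zfp36l2, while at Creb5 12 of 36 are called and the others are grey.

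The 3 intronic or intergenic regions with the most H3K27ac were all nearest to Gm10800 and 46.4% to 86.3% masked as repeats. The strongest measured 10546 and 6646 normalized tags in basal and 18537 and 24685 at 6 h, without passing (limma adjusted p 0.455). With those set aside, a choice made after the values were seen, introns of Gpnmb, Sirpa and Brd2 led. Gpnmb, a lysosomal glycoprotein gene of macrophages, measured 1980 and 1108 in basal and 1798 and 980 at 6 h (log2 difference -0.16), and none of the 3 was called.

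At 6 h, H3K27ac was compared directly with 1 h and 24 h in the same fit. Against 1 h 0 regions were called by limma (0%), although 8067 had an unadjusted p under 0.05, and the smallest adjusted p was 0.471. Without 1 h replicate 1, which leaves replicate 2 as the only 1 h library, 13433 regions were higher at 6 h and 92 lower. Without replicate 2 the count was 0. In the regions that rose against basal, library medians were 24.0 and 7.57 normalized tags at 1 h, 35.4 and 36.5 at 6 h and 23.8 and 21 at 24 h. In those that fell they were 14.7 and 21, then 14.6 and 15.2, then 22.9 and 36.8. The choice of these regions used the 6 h values, so these medians are a description.

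Against 24 h 57 regions were lower at 6 h and 0 higher (0.0731%). With a replicate block 402 were higher and 264 lower, and without 24 h replicate 1 25 were higher and 50 lower, so the single direction did not hold under these settings. Of these 51 were nearest to Sfi1, and 52 had also fallen against basal. They had medians of 33.5 normalized tags in basal, 2.07 at 1 h, 1.46 at 6 h and 73.8 at 24 h. The remaining 6 included regions near Gm10718 (99.2% masked as repeats, 124 and 68.5 in basal, 7.70 and 6.09 at 6 h, 453 and 509 at 24 h), Scaf8 and Sp110, named after their values were seen. Pol II near Gm10718 at 24 h was 310, 5.01 and 517, so libraries of the same time point were far apart there. Restricting the test to regions under 50% masked, a choice also made after seeing the data, left 42. Since 0 regions were called against 1 h, no region could be called at 6 h in 1 direction against basal, 1 h and 24 h together.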

How the data were processed

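ChIP-seq of C57 macrophages was analysed for H3K27ac (8 libraries) and Pol II (10 libraries). Per the study's methods and the file headers, the authors aligned reads with bowtie2 to mm10 and made HOMER tag directories, and the deposited signal values are tags in 1000 bp around reproducible ATAC-seq peaks, scaled to 10000000 tags of the library total with replicates kept apart. The authors called factor and ATAC-seq peaks with HOMER and kept those reproducible between replicates, 1 list per condition, and their deposited score per peak was not used. Values multiplied by the library total over 10000000 gave whole reads within 0.1 read for 100% of 1403190 values.

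The main test was limma 3.58.1 in R 4.3.3 (lmFit, eBayes with trend, two-sided) on log2(normalized tags + 1) over all 8 H3K27ac libraries, with no filter, 4 residual degrees of freedom and Benjamini-Hochberg adjustment over 77955 regions at 0.05. Fold changes on this scale understate those of low regions. The tools edgeR 4.0.16 (quasi-likelihood) and DESeq2 1.42.0 ran on the recovered reads as alternatives, beside a pseudocount of 5, median-ratio scaling, a minimum of 16 normalized tags, a replicate block and leaving out each library. The main test was also run on simulated reads with the same spread in every library, so that run does not vouch for the calls in these libraries. Chi-square over degrees of freedom between replicate libraries was 16.8 in basal and 6.98 at 6 h, beyond sampling noise, so each library counted on its own. Scaling to library totals does not adjust for differences between libraries in the share of tags that fall in regions.

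The table pairs regions with no gene, so the nearest start of a protein-coding transcript in GENCODE vM21 was used, which was at most 1000 bp away for 95.8% of the 12523 regions that the authors annotated as promoters. Sequences came from RefSeq GRCm38.p6. Intervals and floors cover counting error only. Other steps used scipy 1.17.1, numpy 2.4.6 and pandas 2.3.3 under Python 3.11.15.

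Named regions were the 10 largest rises and falls (adjusted p under 0.05, at least 16 normalized tags in either mean, no overlap of libraries, 1 per gene), the strongest region of each listed gene, of which the 2 highest and 2 lowest folds per list, the 3 highest distal regions, the 5 genes with most calls in each direction, and any region called against basal, 1 h and 24 h. The comparison, members and gene lists were chosen with earlier results of these data known. Among these, 1 of the largest falls and 1 listed gene are not reported here. Genes given by their own counts or their most changed region were picked after the values were seen.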

Additional observations from a re-analysis of the deposited data

Results flagged for a closer look

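The comparison of 6 h with 24 h gave 57 regions lower at 6 h by limma and 0 higher, but 402 higher and 264 lower with the replicate block and 25 higher and 50 lower without 24 h replicate 1. Pol II libraries of 24 h were far apart at the most fallen Sfi1 region (43.35, 1.82 and 76.96) and near Gm10718 (310, 5.01 and 517). Of the 57, 51 lay nearest to Sfi1, with a median of 27.6% of bases masked as repeats against 13.5% over all regions, and the cause was not tested.

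In the Pol II values of the 10 rises and 9 falls described, 1 of the 4 basal libraries lay far from the others in 4 regions, by Dixon's ratio of the gap to the range. Chance gives about 1 in 20 for independent groups, and these regions share their libraries. The ratio was 1 at Ang5, where 1 basal library held 0.54 normalized tags, a single read, and the others 0, so that it could take no other value and shows nothing. At Cry1 it was 0.981 (31.8 in replicate 1, at most 1.60 in the others), at Msx3 0.890 (46.8 against at most 5.62) and at Pigk 0.841 (21.8 against at most 4.82). In the last 3 the distant library was basal replicate 1, whose part in these values was not tested.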

How the results depend on the processing

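For 6 h against basal, with 3997 regions called, other settings gave 10651 (replicate block), 6176 (basal and 6 h libraries only) and 6615 (DESeq2), and leaving out 1 library gave 227 to 7219. Settings within 1.5 times of the main count were a pseudocount of 5 (4454), median-ratio scaling (3737), a minimum of 16 normalized tags (3491), edgeR with library totals (3877) or TMM (3892), and, chosen after seeing the data, regions under 50% masked (3866). Deviations of same-numbered libraries correlated at 0.0364 between basal and 6 h and 0.0289 between 6 h and 24 h, and at 0.364 to 0.725 between the other times, so numbers were not taken to pair the libraries throughout, although some went together. Against 1 h the block gave 1470 regions and leaving out 1 library 0 to 13525, against 24 h the block gave 666 (402 higher and 264 lower), median-ratio scaling 31 and leaving out 1 library 21 to 75. Pol II calls numbered 441, and 790 with the block, 1598 with DESeq2 (added after seeing the data) and 4 (without 6 h replicate 1) to 2363 (without basal replicate 1). They were 174, 136 and 106 without basal replicates 2, 3 and 4 and 23 without 6 h replicate 2.

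The fold rule counted 8427 to 16291 regions under its alternatives, against 11088. With peak centres within 150 bp, STAT6 peaks at 6 h overlapped 43.6% of rising and 41.0% of falling regions and EGR2 peaks 13.7% and 8.60%. In the whole 1000 bp the motif shares of rising and falling regions were 45.8% and 19.6% for STAT6, 6.59% and 4.74% for EGR, 45.1% and 34.8% for AP-1 and 37.0% and 37.4% for NF-kB.

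Uncalled log2 differences that changed sign are given next. With median ratios H2-DMa stood at 0.15, B2m at 0.059 and Rplp0 at 0.056, with DESeq2 H2-DMa at 0.16 and Rplp0 at 0.044, and with edgeR on library totals Gbp5 at -0.11. Leaving out 1 library, they ran from -0.26 to 0.13 for H2-DMa, from -0.62 to 1.30 for H2-Ab1, from -0.84 to 0.54 for B2m, from -1.0 to 2.09 for Gbp5, from -0.63 to 1.97 for Gbp2, from -0.085 to 0.34 for Ctsl, from -0.21 to 2.19 for Gfi1, from -0.41 to 0.10 for Rplp0, from -0.28 to 0.87 for Clec7a and from -0.058 to 0.40 for Tlr8. The cause of these shifts was not tested.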
